A study of Mus musculus with 8 samples.

Results

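The transcription factor genes of the Sox, Tbx, Pax and Gata families were examined for double-stranded DNA breaks (DSBs) at their promoters in mouse embryonic stem (ES) cells that lack the chromatin remodeler Chd1. The set holds the 41 autosomal protein-coding genes whose symbol is the family name followed only by digits, of 21275 autosomal protein-coding genes in the GENCODE M1 annotation of the mouse genome build mm9. There are 16 Sox, 11 Tbx, 9 Pax and 5 Gata genes. A further 2 genes with such symbols were left out by name. The members were chosen by their symbols and not by their DSB values, though with earlier results of these data known. Their expression was not measured here.

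DSB-seq was carried out in established Chd1 KO ES cells (Chd1Δ/Δ), in which both Chd1 alleles are deleted, and in control ES cells (Chd1fl/Δ), titled WT in the sample labels. The control cells also carry 1 deleted allele, next to an intact floxed allele. Both kinds of cells were grown in serum with LIF. In this assay cells are fixed, and the DNA ends in their nuclei are extended with biotinylated dUTP by terminal transferase. The labeled fragments are then captured on streptavidin and sequenced. Each genotype had 2 replicates, which the authors combined before they called peaks. The values below therefore come from 1 peak list per genotype, have no replicate error and were not tested.

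Members of the 4 families share a DNA-binding domain within each family: the HMG box of Sox proteins, the T-box of Tbx proteins, the paired domain of Pax proteins and the zinc fingers of Gata proteins. They are regulators of cell fate that are used again and again in embryonic development. Sox9 and Sox10 act in cartilage and neural crest, Tbx5 and Gata4 in the heart, Pax6 in the eye, Pax3 and Pax7 in muscle, and Gata2 in blood. In ES cells many genes of this kind lie in wide CpG-rich regions and are held silent until differentiation. Chd1 is a remodeler that moves nucleosomes near the transcriptional start sites (TSSs) of active genes.

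In Chd1 KO cells, 9 of the 41 genes had a DSB peak whose summit lay within 1 kb of a TSS of a protein-coding transcript. They were Sox4, Sox12, Sox13, Sox21, Sox30, Tbx18, Pax1, Gata2 and Gata4. This is 22% of the members (Wilson 95% interval, 12% to 36.7%), beside 16.4% of all 21275 genes (3488 genes, 15.9% to 16.9%), so the share of the members lay near the background. In a narrower window that ends 100 bp downstream and starts 1 kb upstream of the TSS, 4 of the 41 genes had a summit (Sox4, Sox30, Gata2 and Gata4), beside 9.86% of all genes. In control cells, 0 of the 41 genes had such a summit, which allows a share of up to 7.32%, beside 0% of all genes. These intervals and limits cover counting error only. Among the families the count was 5 of 16 for Sox, 1 of 11 for Tbx, 1 of 9 for Pax and 2 of 5 for Gata, and the intervals of the 4 shares overlap.

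The 2 lists differ in size and in how weak a peak they can hold. The Chd1 KO list has 5671 peaks and the control list 54. The weakest Chd1 KO peak had 13 extended reads at its summit and the weakest control peak 17, with −log10 p-values down to 4.88 in Chd1 KO and down to 7.13 in control. Of the 9 genes, 8 had a Chd1 KO peak whose p-value lay within the range of the control list, and Sox21 did not (−log10 p-value of 6.94). Of all genes, 14.7% had a promoter summit within that range, beside 16.4% without this limit. A gene without a peak is one at which no peak was called, and the DSB signal there was not measured.

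The sequence under these peaks was rich in G and C. The longest stretch without A or T within the highest promoter peak of each of the 9 genes is printed below on the strand of the gene, 5′ to 3′, from mm9. Capitals mark the stretch, here called a run, and lower case its neighbors. They are shown because a run of at least 12 bp lay under each of the 10 promoter peaks of these genes, as it did under 97.1% of the promoter summits of all genes.
Sox4: ccgcccctGGCCCGCGCGCCGCtcagggga
Sox12: gccgaGCCGCGGGGCGGGGCCGCCCCtccg
Sox13: ctCCGCCCGGCCGCGCCGCCCCGGCCCGCt
Sox21: gcagctGCCGCCGCCGCCGCGCGCGtcttc
Sox30: aatCCCGGCCGCGGCCCGCCCGCCCCCtcc
Tbx18: aagcggctGCCCCGCCGCCGGCagccgggg
Pax1: aggccctGGGGCGGGCGGCGCGCtgggcag
Gata2: tgcgttCCGCGCCGCGGGGGCCCCactggt
Gata4: agtcctGCGGGCGGGCGCCGGGCGGaggtg

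Each window holds 30 bases. They lie at chr13:29044979-29045008 for Sox4, chr2:152223516-152223545 for Sox12, chr1:135320568-135320597 for Sox13, chr14:118634411-118634440 for Sox21, chr11:45793789-45793818 for Sox30, chr9:87625436-87625465 for Tbx18, chr2:147190855-147190884 for Pax1, chr6:88143848-88143877 for Gata2 and chr14:63864202-63864231 for Gata4. The run of Sox13 was 27 bp long and held 7 CpG sites. That of Sox30 was 24 bp long with 5 CpG sites. The runs of Sox4 and Tbx18, each 14 bp long, were the shortest. The run of Sox21 opens with a GCC repeat, which lies in the coding sequence.

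Most of these summits lay downstream of the nearest TSS. This held for 8 of 10 summits, with a median position 223 bp downstream, beside 62.8% of the summits of all genes with a median of 67 bp. Upstream of the outermost TSS lay 0 of 10 member summits, beside 26.6% for all genes. Of the member summits, 5 of 10 fell in a coding exon, beside 14.2% for all genes, 4 in a 5′ untranslated exon, beside 30.5%, and 1 in an intron, beside 28.5%. Summits more than 500 bp downstream made up 3 of 10, beside 7.35%. With 10 summits these shares are coarse, and they were not tested.

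**Figure D1:**
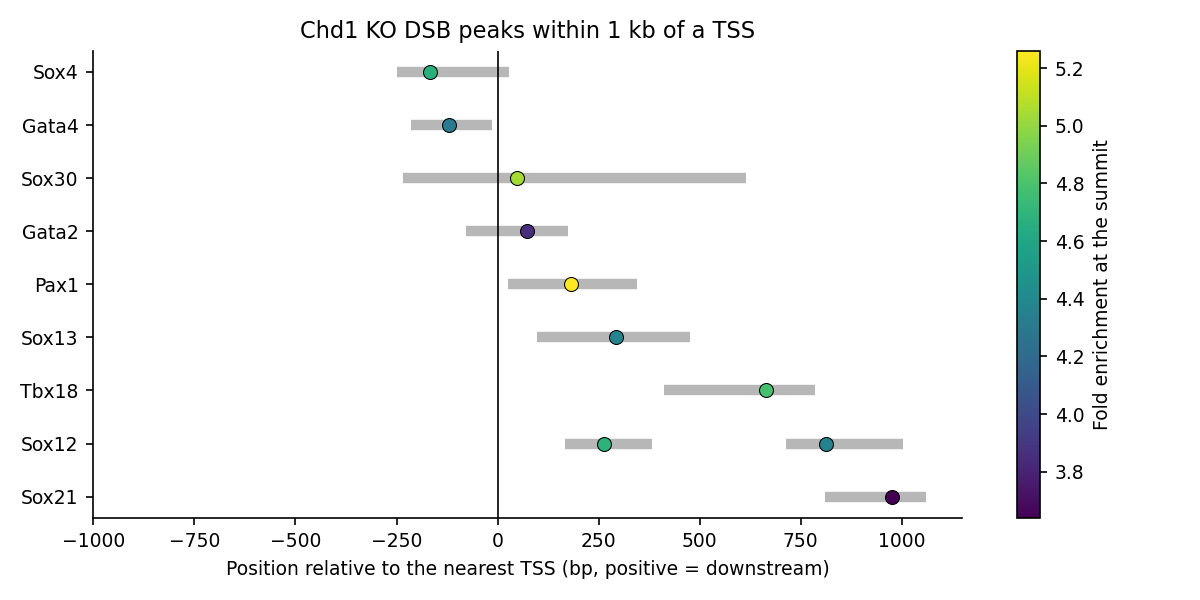
Chd1 KO DSB peaks (gray bars) and their summits (circles, colored by the fold enrichment at the summit) of the 9 genes with a summit within 1 kb, by position from the nearest TSS in bp, positive downstream. The summits run from 168 bp upstream at Sox4 to 976 bp downstream at Sox21, and Sox12 has 2 peaks.

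Fold enrichment, the reads at the summit plus 1 over the local background plus 1 in the same library, lay between 3.64 and 5.26 for the 10 member summits, with a median of 4.52. For all promoter summits the median was 4.53, with quartiles of 4.05 and 5.08 and a range of 2.91 to 8.13. Between 7.7% and 79.9% of all promoter summits were lower than each of the member summits, so that none was among the highest. Their summits held 18 to 26 reads, with a median of 21.5 beside 21 for all genes. The GC content of the peaks was also alike, with a median of 76.5% beside 76.7%, and their median width was 284 bp beside 318 bp.

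Of the Sox genes, Sox30, which acts in spermatogenesis, had the summit nearest to a TSS. Its peak, chr11:45793577-45794426, was 850 bp wide, the widest of the 10, and its summit lay 48 bp downstream of the only TSS, in the coding exon. It had 22 reads over a local background of 3.56, a fold enrichment of 5.04, above that of 73.9% of all promoter summits. Sox30 was also the longest of the 9 genes, with a transcript length of 37.7 kb.

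Sox12 had 2 separate peaks, and 8% of all genes with a promoter summit had several. Sox12 is a SoxC gene, like Sox4 and Sox11, a group known for roles in progenitors of many tissues. The first peak, chr2:152223399-152223616, had its summit 264 bp downstream of the TSS in the 5′ untranslated exon, with 25 reads and a fold enrichment of 4.68. The second, chr2:152222780-152223069, lay 812 bp downstream in the coding exon, with 24 reads and a fold enrichment of 4.36. The second peak is printed whole, since its GC content of 80.3% lies in protein-coding sequence. It holds 6 runs of at least 12 bp, in capitals, on the strand of the gene.
Sox12: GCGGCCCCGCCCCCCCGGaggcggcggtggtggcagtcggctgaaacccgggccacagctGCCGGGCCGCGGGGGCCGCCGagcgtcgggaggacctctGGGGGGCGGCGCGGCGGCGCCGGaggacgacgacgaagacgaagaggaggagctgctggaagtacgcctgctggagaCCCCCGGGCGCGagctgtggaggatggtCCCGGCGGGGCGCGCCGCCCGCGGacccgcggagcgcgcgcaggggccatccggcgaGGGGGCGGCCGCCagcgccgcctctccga

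Sox12 had the most GC-rich promoter of the 41 genes, 70.3% within 1 kb of the TSS, and the longest run of all of them, 38 bp. Sox4, its relative, had a promoter GC content of 53.9%. The peak of Sox4, chr13:29044861-29045139, had 20 reads and a fold enrichment of 4.67, close to that at Sox12. Its summit lay in the 5′ untranslated exon, 524 bp downstream of the outermost TSS and 168 bp upstream of a second TSS. Sox11, the third SoxC gene, had a promoter GC content of 65.8% and its nearest summit was 2690 kb away, the farthest of the 41 genes.

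Sox13, a SoxD gene that acts in T cells, had the most reads at a summit, 26, but also the highest local background, 5.16, and so a fold enrichment of 4.38. Its peak at chr1:135320477-135320856 had the summit 292 bp downstream of the outermost TSS in the 5′ untranslated exon. Its SoxD relatives Sox5 and Sox6, which act together in cartilage, have the longest transcripts of all members and promoters with less than 50% GC. Sox5 had a promoter GC content of 49.2% and a length of 244.3 kb, Sox6 45.7% and 474.1 kb, and neither had a promoter summit.

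Sox21, a SoxB2 gene that promotes neuronal differentiation, had the weakest of the 10 summits. It held 18 reads with a fold enrichment of 3.64, above 7.7% of all promoter summits. The summit, in chr14:118634251-118634499, lay 976 bp downstream of the nearest TSS and 1918 bp from the outermost one, just inside the 1 kb limit. Sox14, the other SoxB2 gene, had no summit within 126 kb. The peak of Sox21 is printed whole because it holds GCC repeats in coding sequence. On the strand of the gene, capitals mark its 5 runs.
Sox21: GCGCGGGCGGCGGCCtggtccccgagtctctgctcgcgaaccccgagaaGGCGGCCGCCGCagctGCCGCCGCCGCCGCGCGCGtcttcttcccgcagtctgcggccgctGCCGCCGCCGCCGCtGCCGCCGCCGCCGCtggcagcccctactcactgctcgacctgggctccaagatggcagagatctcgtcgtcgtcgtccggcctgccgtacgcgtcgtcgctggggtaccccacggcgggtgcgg

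Among the Tbx genes, Tbx18, known for its role in the sinoatrial node, epicardium and ureter, was the only one with a promoter summit. The peak, chr9:87625311-87625684, had its summit 665 bp downstream of the TSS in the coding exon, with 19 reads and a fold enrichment of 4.78. The promoter GC content was 53.0%, and 52.7% within 250 bp of the TSS, yet the peak itself had 72.5%. The GC-rich part of this gene thus lay inside an exon and not at the TSS.

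Pax1, which patterns the vertebral column, was the only Pax gene with a promoter summit, and the highest of the 10 by fold enrichment. The summit in chr2:147190755-147191076 had 21 reads over a background of 3.18, a fold enrichment of 5.26, above 79.9% of promoter summits. It lay 182 bp downstream of an inner TSS and 3251 bp from the outermost one, at which the GC content was only 50.6%. The summit is in a coding exon of one transcript and in a 5′ untranslated exon of another.

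Both Gata genes with a summit act early in embryonic lineages. Gata2, needed in hematopoietic stem cells, had a peak at chr6:88143807-88144060 that spans the TSS, with its summit 72 bp downstream, 22 reads and a fold enrichment of 3.86. Gata4, a regulator of heart and endoderm, had 2 Chd1 KO peaks in its introns. The first, chr14:63864123-63864322, lay 119 bp upstream of an inner TSS and 26302 bp downstream of the outermost one, with 18 reads and a fold enrichment of 4.30. The second, chr14:63874536-63874861, was more than 10 kb from every TSS, with 18 reads and a fold enrichment of 3.89.

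The first Gata4 peak is printed because at this gene the peak marks an inner start and not the outermost promoter, whose GC content is 52.1%. Capitals mark the 2 runs, on the strand of the gene.
Gata4: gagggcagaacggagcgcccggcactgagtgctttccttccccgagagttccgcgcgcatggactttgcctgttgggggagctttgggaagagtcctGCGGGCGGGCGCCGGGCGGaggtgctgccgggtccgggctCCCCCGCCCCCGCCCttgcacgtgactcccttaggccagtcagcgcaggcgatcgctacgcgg

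None of the 10 summits lay within 1 kb of the TSS of another gene, a share not given here for all promoter summits. None of the 10 peaks overlapped a control peak, and 0% of all genes had a control summit within 1 kb of a TSS. Gata3, a regulator of T cells, had its nearest summit 1210 kb away. Gata5 had its nearest summit 61.4 kb away.

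Promoter GC content was taken over 1 kb on either side of the outermost TSS of each gene, and gene length was the mean genomic length of its protein-coding transcripts. The members had a median GC content of 55.2% (quartiles 53.4% and 61.4%, range 45.6% to 70.3%), beside 51.3% for all genes (45.9% and 56.1%). No member had less than 45%, the class that holds 21.8% of all genes. Their median length was 17.3 kb (range 1.41 to 474 kb), beside 13.4 kb. The families differed in length, with medians of 3.77 kb for Sox, 18.8 kb for Tbx, 23 kb for Gata and 49.2 kb for Pax. Their median GC contents were 59.8%, 54.7%, 58.4% and 54.3%, in the same order.

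**Figure D2:**
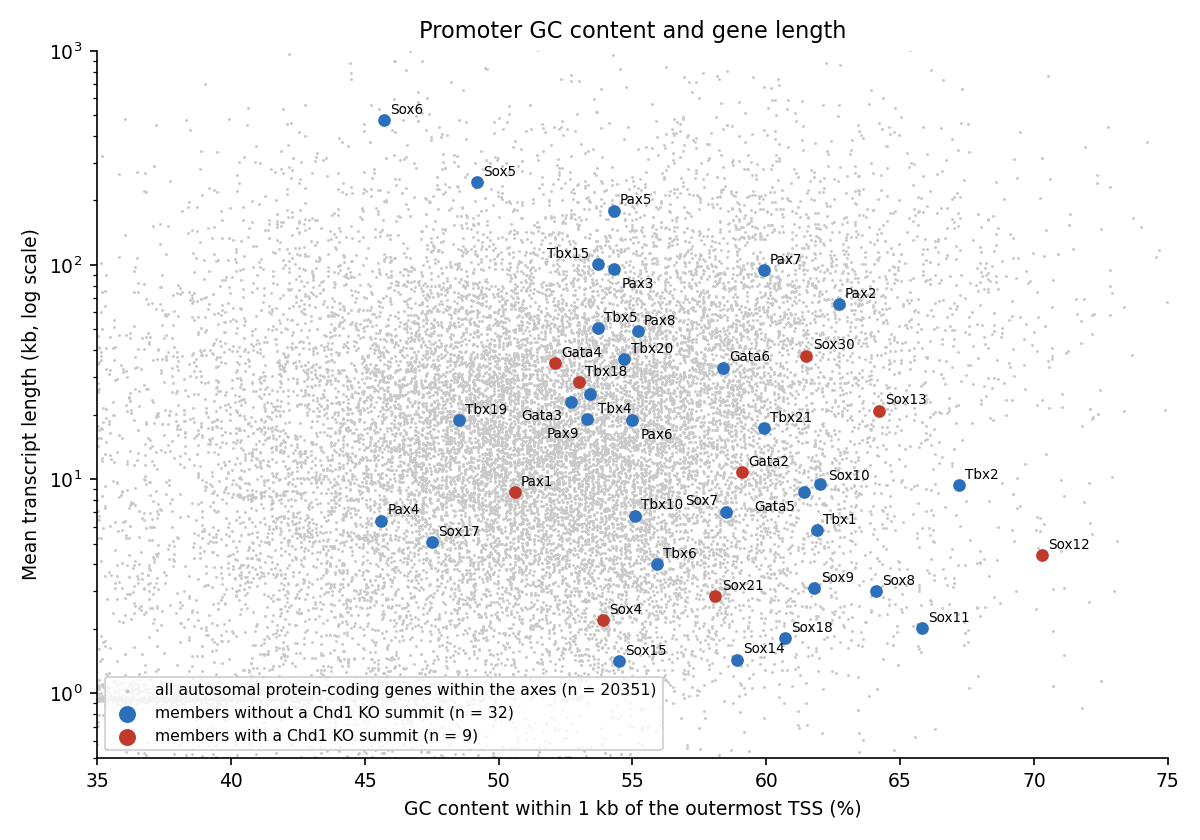
GC content within 1 kb of the outermost TSS (horizontal axis, %) and mean transcript length (vertical axis, kb, log scale) of the 9 members with a Chd1 KO summit (red), the 32 without (blue) and all genes within the axes (gray). Red and blue points mix from 50.6% GC upward, and members over 50 kb long are all blue.

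Across all genes, the share with a Chd1 KO promoter summit rose with GC content, from 1.21% of genes below 45% to 93.3% of genes with 70% to 75%. The members are few in each class, and their shares did not rise in the same steps. In the class of 50% to 55%, 4 of 14 members had a summit (28.6%), beside 10.9% of all genes. Among these 4, Pax1 and Gata4 had it at an inner TSS, 3251 bp and 26302 bp from the outermost one, where GC content was taken. In the class of 55% to 60% it was 2 of 10 (20%), beside 29.5%, and in the class of 60% to 65% 2 of 9 (22.2%), beside 55.7%. The other classes held 0 of 5 at 45% to 50%, beside 4.03%, 0 of 2 at 65% to 70%, beside 73.6%, and 1 of 1 at 70% to 75%.

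With the members split at 55% GC, a split chosen after the values were seen, the order of the shares depended on the window in which GC content was taken. Within 1 kb of the TSS and below 55%, 4 of 19 members had a summit (21.1%), beside 5.77% of all genes. From 55% up, 5 of 22 did (22.7%), beside 2637 of 6516 genes (40.5%, 39.3% to 41.7%). With GC content within 250 bp of the TSS, 4 of 11 members below 55% had a summit (36.4%) and 5 of 30 from 55% up (16.7%), beside 3.47% and 25.7% of all genes. The 17 members with at least 55% GC within 1 kb and without a summit include all 3 SoxE genes, Sox8, Sox9 and Sox10, and the SoxF genes Sox7 and Sox18. Nothing was tested here, since the members are few and not replicates of one another.

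**Figure D3:**
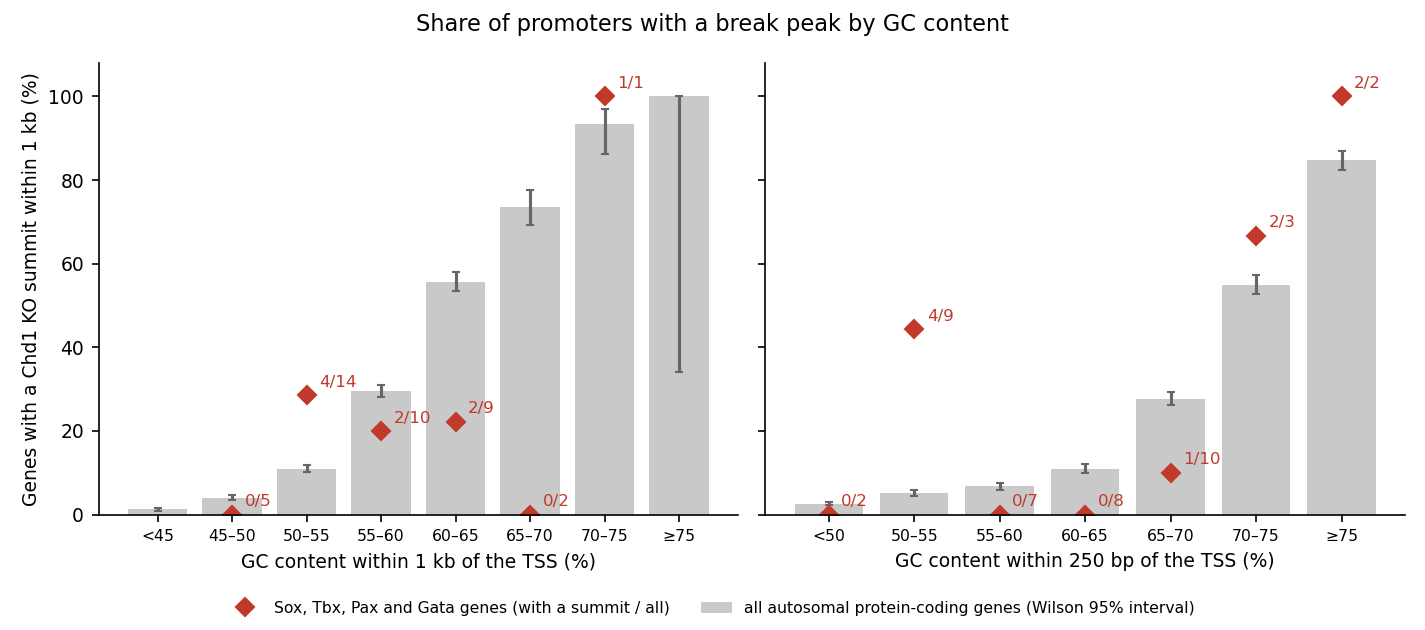
Share of genes with a Chd1 KO summit within 1 kb of a TSS (%) by GC content within 1 kb (left) or 250 bp (right) of the outermost TSS. Gray bars are all genes with Wilson 95% intervals, and red diamonds are the members with counts beside them. At 60% to 65% GC in the left panel the members stand at 2 of 9, beside 55.7% of all genes.

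The 8 most GC-rich members without a promoter summit were Tbx2 (67.2%), Sox11 (65.8%), Sox8 (64.1%), Pax2 (62.7%), Sox10 (62.0%), Tbx1 (61.9%), Sox9 (61.8%) and Gata5 (61.4%). Their promoters also hold long runs of G and C. The longest run within 1 kb of the outermost TSS is printed below for 4 of them, on the strand of the gene, with capitals as before. They are shown so that they can be set beside the runs under peaks.
Tbx2: tCCGCGCGCGCCGCCGCCCGGGCCGGGGGt
Tbx1: ctCGGCGGGGCGGGGCGGGGCGGGGCGGCt
Sox8: cctGGGCCGCGCGGGGGGCGGCGGCCGagg
Sox11: cgcgggtCCCGGGCCGCCGCCGCCtcctct

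These windows lie at chr11:85646520-85646549, chr16:18587151-18587180, chr17:25707316-25707345 and chr12:28027442-28027471. The run of Tbx2, a T-box repressor active in heart and limb, was 28 bp long with 8 CpG sites, and its center lay 482 bp downstream of the TSS. The run of Tbx1, a gene of the pharyngeal arches, was 27 bp long and repeats GGGGC. Its center lay 948 bp downstream of the outermost TSS, near the edge of the 1 kb window. The run of Sox8 was 24 bp long, and that of Sox11 17 bp. Thus Tbx2 and Tbx1 had runs as long as or longer than that under the peak of Sox13, and no promoter summit. Across all genes, 73.2% of those with a run of at least 28 bp had a summit, as did Sox12 but not Tbx2, the 2 members of that class.

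GC content rose less toward the TSS at the GC-rich members than at all genes of their class. Among the 22 members with at least 55% GC, the GC content within 250 bp of the TSS exceeded that within 1 kb by a median of 4.7 percentage points, beside 8.4 for the 6516 genes of the same class. There was no gain at 4 of these 22 members (18.2%), beside 9.55%. Only 5 of the 22 (22.7%) reached 70% within 250 bp, beside 37.8%. Of those 5, Sox12, Sox13, Sox30 and Gata2 had a summit and Sox7 did not. For all genes with at least 70% within 250 bp, the share with a summit was 64.9%.

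At Sox9, Sox11, Tbx2 and Pax2 the GC content near the TSS was much the same as in the wider promoter. Sox9 had 61.7% within 250 bp and 61.8% within 1 kb. Sox11 had 65.3% and 65.8%, Tbx2 67.1% and 67.2%, and Pax2 62.9% and 62.7%. At Sox30, which had a summit, the values were 75.4% and 61.5%, the largest gain among the 9 genes with one. A gain near the TSS did not separate the members, however. Sox7, Tbx4 and Tbx20 had no summit, with 73.1% and 58.5%, 66.7% and 53.4%, and 66.3% and 54.7%. Sox4 (52.9% and 53.9%) and Tbx18 (52.7% and 53.0%) had a summit and no gain.

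**Figure D4:**
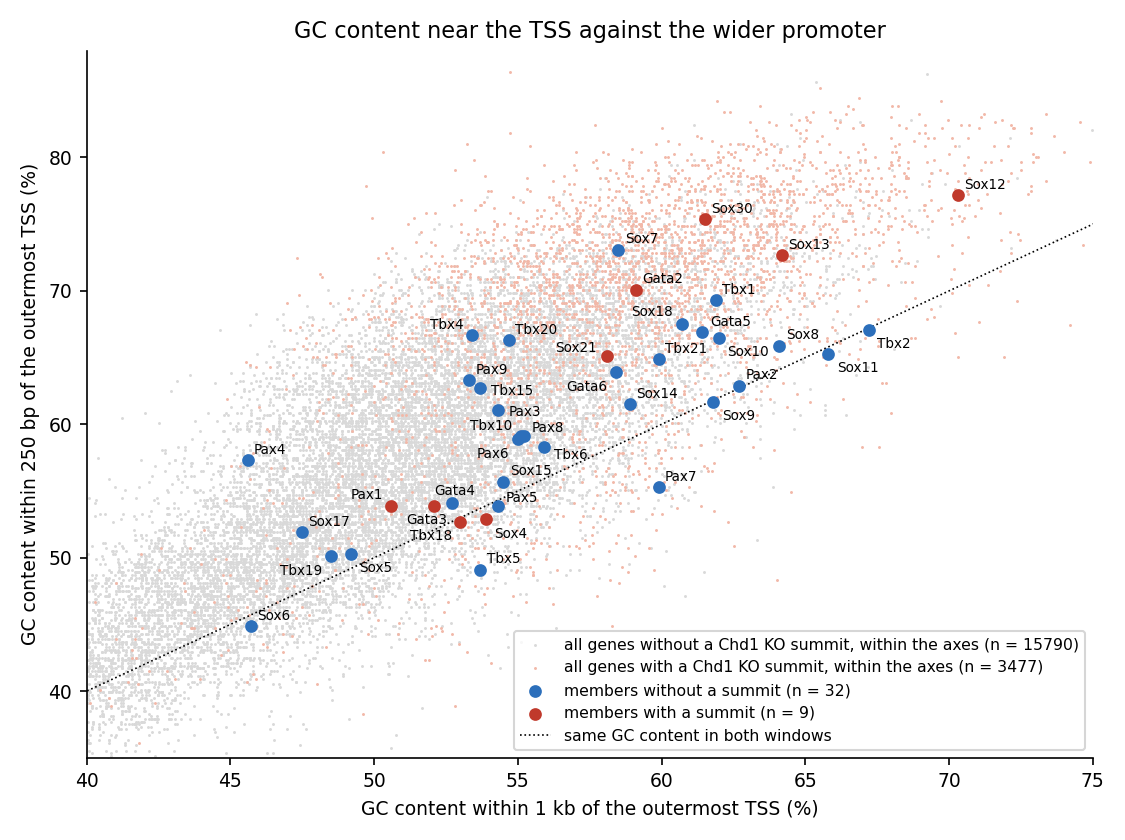
GC content within 250 bp against GC content within 1 kb of the outermost TSS (both in %) for members with (red) and without (blue) a Chd1 KO summit and for all genes within the axes (pale red with a summit, gray without). The dotted line marks equal values, on which Sox9, Tbx2 and Pax2 nearly lie, while Sox12, Sox13, Sox30 and Gata2 lie above it at 70% or more near the TSS.

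Pax1, Tbx18, Sox4 and Gata4 had a summit with only 50% to 55% GC within 250 bp of the outermost TSS, a class in which 4 of 9 members and 5.12% of all genes had one. At Pax1 and Gata4 the peak lay at an inner TSS, and at Tbx18 and Sox4 it lay 665 bp and 524 bp downstream of the outermost TSS. The densest part of the promoter, the 200-bp window with the highest GC content near any TSS, was therefore also taken, a measure chosen after the values were seen. All 4 genes were high on it, with 84.5% at Pax1, 80.5% at Sox4, 79.5% at Tbx18 and 78.0% at Gata4.

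By this measure the members followed the order of all genes. With less than 75% in the densest window, 0 of 18 members had a summit, beside 3.12% or less in each of the classes of all genes below this value. With 75% to 80%, 2 of 11 did (18.2%), beside 23.3% of all genes, and with 80% or more, 7 of 12 did (58.3%), beside 75.8%. The 5 members of the last class without a summit were Tbx1 (88.5%), Tbx2 (87.0%), Sox7 and Sox11 (81.0% each) and Tbx15 (80%). The peaks themselves mark GC-rich windows, so this order describes where peaks lie and is not a separate property of these genes. Whether GC-rich fragments were recovered unevenly in sequencing was not tested.

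Length did not set the members with a summit apart in the way it did for all genes. Across all genes, those with a summit had a median length of 33.3 kb and those without 11 kb. Among the members it was the other way round, 10.8 kb with a summit and 18 kb without. The quartiles were 4.44 and 28.5 kb with a summit and 5.6 and 49.5 kb without, so the 2 ranges overlap widely. Of the 8 members longer than 50 kb (Pax2, Pax3, Pax5, Pax7, Tbx5, Tbx15, Sox5 and Sox6), 0 had one, beside 33.7% of all genes of 50 to 100 kb and 31.1% of longer ones. With only 8 members, the limit for a count of 0 takes in both of these shares. Of the 10 members under 5 kb, 3 had a summit, namely Sox4, Sox12 and Sox21, beside 5.74%. In between it was 1 of 9 at 5 to 10 kb (11.1%, beside 10%) and 1 of 5 at 10 to 20 kb (20%, beside 13.9%). At 20 to 50 kb it was 4 of 9 (44.4%), beside 23.1%. These shares were not tested. Most of the short members are Sox genes, so length and family cannot be told apart here.

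Genes with several TSSs have more places at which a summit can count. Of the 15 members with 1 TSS, 3 had a summit (20%), beside 11.2% of all such genes. Of the 11 with 3 or more TSSs, 3 did (27.3%), beside 26.4%.

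Outside the 1 kb window, several members had a Chd1 KO summit close by. Gata6, which acts with Gata4 in heart and endoderm, had one in a coding exon 1.69 kb downstream of the TSS, with 20 reads and a fold enrichment of 4.39. Tbx19, the pituitary factor of corticotrophs, had one 1.72 kb downstream, with 20 reads and 4.41. Tbx2 had one 2.31 kb upstream, with 21 reads and 3.69. These are the members just outside the limit, as Sox21 is just inside it. Within 2 kb, 11 members had a summit (26.8%), beside 17.1% of all genes, and within 10 kb 13 did (31.7%), beside 20.7%.

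The peak of Tbx19 was of another kind. Its GC content was 56.7%, and its one run of 26 bp is nearly all C. The peak, chr1:167082002-167082216, is printed on the strand of the gene, with the run in capitals.
Tbx19: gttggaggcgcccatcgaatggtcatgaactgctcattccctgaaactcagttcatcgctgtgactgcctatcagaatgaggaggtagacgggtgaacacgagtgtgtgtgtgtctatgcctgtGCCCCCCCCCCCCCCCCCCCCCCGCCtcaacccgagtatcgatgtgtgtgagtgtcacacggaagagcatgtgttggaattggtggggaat

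Pax3, which acts in neural crest and muscle precursors, had the nearest summit in an intron, 7.15 kb downstream of the TSS, in chr1:78186126-78186398. It had 22 reads and a fold enrichment of 5.50, above that of 86.7% of promoter summits and higher than any of the 10 promoter summits above, although no TSS is annotated within 1 kb of it. The GC content was 74.0%. The peak is printed on the strand of the gene to show that its 3 runs, in capitals, are of the same kind as those at the promoters.
Pax3: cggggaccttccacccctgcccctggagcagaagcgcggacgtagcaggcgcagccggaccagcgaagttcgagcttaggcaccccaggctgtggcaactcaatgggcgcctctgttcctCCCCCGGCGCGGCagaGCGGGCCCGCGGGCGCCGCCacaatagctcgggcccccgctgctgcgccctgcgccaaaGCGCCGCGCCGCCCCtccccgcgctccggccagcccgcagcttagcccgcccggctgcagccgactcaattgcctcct

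Counting the gene body and 10 kb on either side, 19 of the 41 genes had a Chd1 KO peak (46.3%), beside 25.1% of all genes. Among the 32 members without a promoter summit it was 10 (31.2%), beside 10.4%. The longest of these, Sox5, had 2 such peaks. The higher one, chr6:144311126-144311480, had 29 reads and a fold enrichment of 6.70, above 98.8% of promoter summits, and lay 153231 bp upstream of the outermost coding TSS, with a run of 33 bp. The other lay within 1 kb of the TSS of a Sox5 transcript that is not annotated as protein-coding. The peak 13.3 kb upstream of Tbx15, a gene of skeletal and muscle development, likewise lay within 1 kb of the TSS of such a transcript. Long genes have more room for a peak, and the counts were not adjusted for length.

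The peaks counted for Tbx6 and Pax5 lay close to the TSS of another gene. The peak 11 kb downstream of the TSS of Tbx6, a gene of paraxial mesoderm, lay 32 bp upstream of the TSS of Ppp4c. The peak in an intron of Pax5, the B cell factor, lay 66 bp downstream of the TSS of the noncoding gene Gm12462. The nearest summit to a member TSS was a median of 36.1 kb away over the 41 genes, beside 82.8 kb over all genes. These distances were not adjusted for the number of TSSs or for promoter GC content, which differ between the members and all genes.

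**Figure D5:**
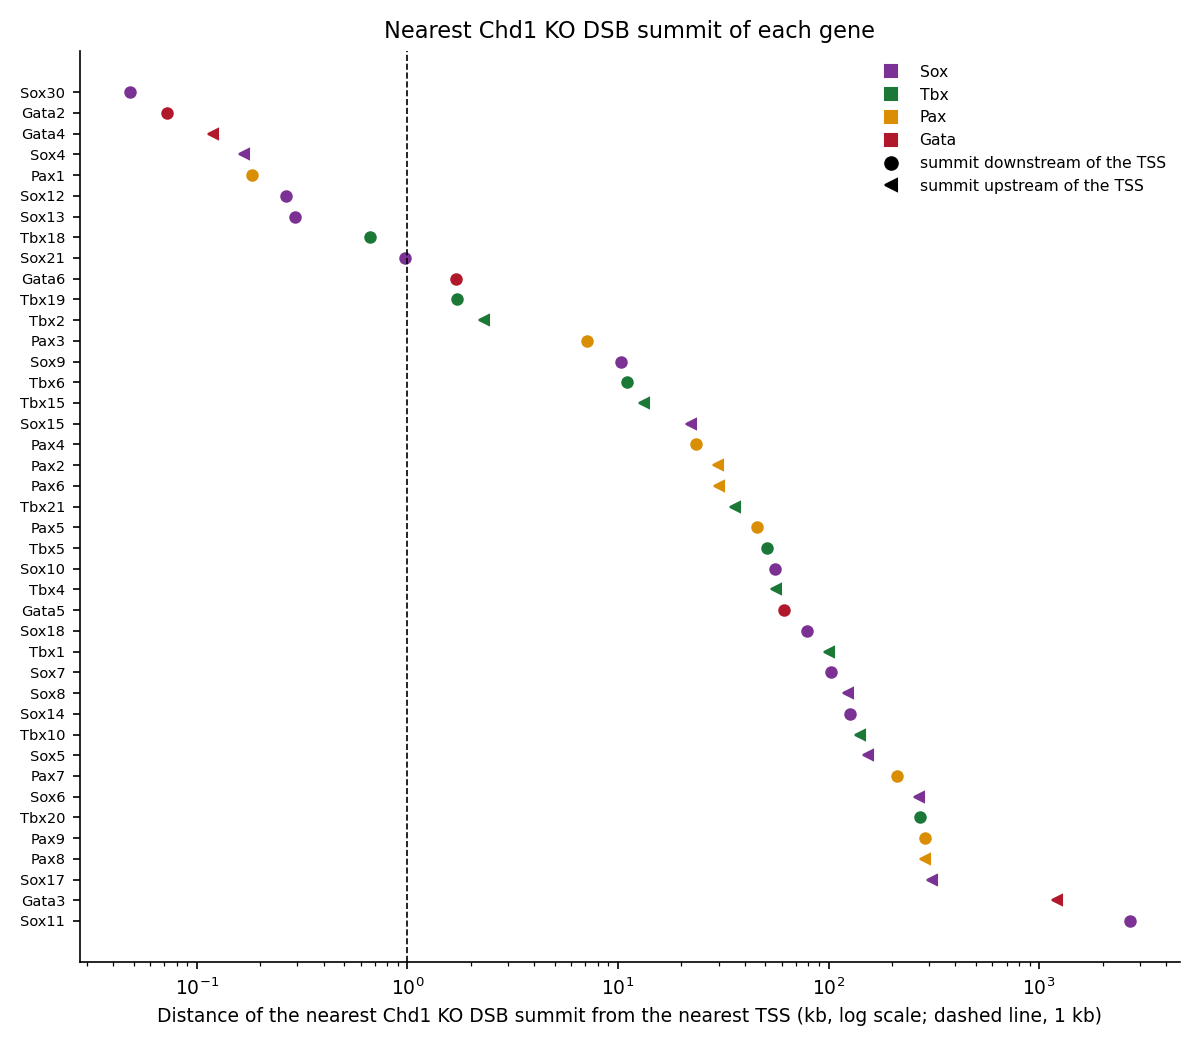
Distance from the nearest TSS to the nearest Chd1 KO summit (kb, log scale) for each of the 41 genes, colored by family, with circles downstream and triangles upstream. The distances run from 0.048 kb at Sox30 to 2690 kb at Sox11, and 9 genes lie left of the dashed line at 1 kb.

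Pax6, the eye and forebrain factor, was the only member with a control summit within 100 kb. Within 50 kb of a TSS, 1 of 41 members had a control summit, beside 21 of 21275 genes. The control peak, chr2:105478849-105479082, lay 30.1 kb upstream of the nearest TSS, with 23 reads over a background of 3.30 and a fold enrichment of 5.58. The Chd1 KO peak at the same place, chr2:105478711-105479153, covered all 234 bp of it, with its summit 17 bp away, 37 reads over a background of 4.04 and a fold enrichment of 7.54. Each fold enrichment is relative to its own library, so the difference between them is not a measured change between the genotypes.

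This site was unlike the promoter peaks. Its GC content was 44.2% in the Chd1 KO peak, and its one run, 25 bp long, alternates G and C and leads into a TG repeat. The longest such repeat there was 38 bp. The 200 bases around the summit, chr2:105478803-105479002, are printed on the strand of Pax6, with the run in capitals, because they are the only stretch near a member that was called in both genotypes.
Pax6: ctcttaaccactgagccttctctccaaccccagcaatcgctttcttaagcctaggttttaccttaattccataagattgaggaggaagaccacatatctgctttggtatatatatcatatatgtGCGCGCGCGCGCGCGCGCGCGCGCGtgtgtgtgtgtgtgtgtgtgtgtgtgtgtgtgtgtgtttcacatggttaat

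How well reads map within this repeat was not tested.

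Relatives and partners of the members that the symbols do not take in were also examined. Of the 24 reported here, 7 had a Chd1 KO promoter summit, beside 16.4% of all autosomal protein-coding genes. That share does not cover the X chromosome, on which 3 of the 24 lie. The small groups below were not tested. The T-box genes T, Tbr1 and Mga had none. Eomes, a T-box regulator of endoderm, had one 373 bp downstream of the nearest TSS with a fold enrichment of 4.32. The X-linked Sox3, Gata1 and Tbx22 had none, Sox3 with a promoter GC content of 67.1%. Among the partners of Gata proteins 1 of 5 had a summit, Ldb1 (4.38), and Zfpm1 at 69.1% GC had none.

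Among the partners of Sox and Pax proteins, 4 of 5 had one. Ctnnb1, which encodes β-catenin, had a GC content of 41.7% around its outermost TSS. Its summit lay 68 bp upstream of its nearest TSS, which need not be the outermost one. The summit had 31 reads and a fold enrichment of 5.78, more than any member promoter summit. The Groucho corepressors Tle1, Tle3 and Tle4 had fold enrichments of 4.46, 3.91 and 4.04, and Tle2 had no summit. Among the Pax network genes Eya1, Eya2, Eya3, Eya4, Six2, Six4 and Dach1, 1 of 7 had one, Six2 (4.30). None of these relatives and partners had a control promoter summit, beside 0% of all autosomal protein-coding genes. These genes are too few for their shares to be compared with those of the members.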

How the data were processed

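DSB-seq of Chd1 KO and control ES cells was analyzed from 1 peak list per genotype. Bowtie2 was used by the authors for alignment to mm9. They dropped reads with a mapping quality under 13 and further reads at a position already taken, and combined the 2 replicates of each genotype. MACS2 peaks with a q-value under 0.05, from reads extended to 200 bp, were kept where they lay outside blacklisted regions. Per the deposited lists, each peak has a fold enrichment (a ratio within its own library), a −log10 p-value, a −log10 q-value and a score, which rescales the q-value and was not used. Depth per library is not in the lists. The paper gives mapped reads for each library, which were not used here. The ChIP-seq samples and the DSB-seq signal tracks were not analyzed here.

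Reads and local background at a summit were recovered from the fold enrichment and the Poisson p-value, which was tested on simulated data and gave the right reads for 1000 of 1000 peaks. TSSs were the starts of protein-coding transcripts in GENCODE M1. Of 21410 gene records, 135 that repeat a symbol on the same chromosome were dropped in favor of the longest. GC content and runs of at least 12 bp were read from the mm9 genome, on which the files and the annotation agree in build. Wilson 95% intervals and the limit of 3 counts for a count of 0 cover counting error only. The text names each member with a Chd1 KO summit within 1 kb of a TSS, the 8 most GC-rich members without one, and members with a control summit within 100 kb. Other members, their peaks outside the promoter and the split at 55% GC, the densest 200-bp window and the classes of runs were chosen after the values were seen. The members and lists were chosen with earlier results of these data known. A further gene on the list of relatives and partners is not reported here. Alternatives changed the TSSs, window, peak position, q-value, fold and p-value cutoffs, and the definitions of GC content and length. Python 3.11.15 with NumPy 2.4.6, SciPy 1.17.1, pysam 0.24.0 and Matplotlib 3.10.9 was used, with samtools 1.23.1.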

Additional observations from a re-analysis of the deposited data

How the results depend on the processing

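The count of members with a Chd1 KO promoter summit, 9 as reported, stayed within 1.5 times this value under 12 of 15 alternatives, between 6 and 11. The exceptions were 3 of the 15 members with 1 annotated TSS, 4 members with the window of 1 kb upstream to 100 bp downstream of the TSS, and 2 members at a fold enrichment of at least 5. The share of all genes, 16.4% as reported, was 15.1% with the outermost TSS only, 11.2% for genes with 1 TSS, 15% within 500 bp, 17.1% within 2 kb and 9.86% from 1 kb upstream to 100 bp downstream. It was 15.8% at a q-value of 0.001, 11.3% at 1e-05, 13.1% and 5.03% at a fold enrichment of at least 4 and 5, and 14.7% when the lowest −log10 p-value of the control list was required of both lists. The median summit position turned from 223 to -35.5 bp with the window that ends 100 bp downstream, which by construction leaves out most downstream summits. The median promoter GC content was 61.7% within 250 bp of the TSS, against 55.2% within 1 kb. The control count of members was 0 under each alternative. Sox30 was the only member counted under every alternative for the window, TSSs and cutoffs. The outermost TSS alone drops Gata4, Pax1 and Sox21, and TSSs of all transcripts add Sox5 and Tbx15. Added after seeing the data, keeping repeated gene records apart left 9 members with a summit, of 42 records. The GC content within 500 or 250 bp left 5 members with a summit at 55% GC or more, but of 30 members in place of 22, so that the share fell from 22.7% to 16.7%, and rose below 55% from 21.1% to 36.4%. No paired analysis was possible because the peak lists used here were called on combined replicates, and for the same reason no replicate was left out. The Chd1 KO list holds no peak under 13 reads, so that weaker DSB sites at these genes are not in it.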
